A study of Mus musculus with 12 samples.

Results

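The 4 genes of the ErbB receptor family, Egfr, Erbb2, Erbb3 and Erbb4, were followed in array comparative genomic hybridisation of neuregulin-driven mouse tumours. They were found by gene name on the arrays, which gave 13 of 40726 autosomal probes and 4 of 20009 autosomal gene names. Egfr, Erbb2 and Erbb3 had 2 probes each and Erbb4 had 7.

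Tumour DNA, from cultures of malignant peripheral nerve sheath tumours (MPNSTs), was labelled with Cy5 and set on every array against Cy3-labelled DNA of non-neoplastic Schwann cells. All tumours came from P0-GGFβ3 transgenic mice, in which the P0 promoter, active in Schwann cells, drives the neuregulin-1 isoform GGFβ3. The 11 tumours comprised 7 of mixed background, C57BL/6J x SJL/J (231 Trig, A18, A202, A292, A382, A390 and A394), and 4 from C57BL/6J mice (B76, B86, B91 and B96), and the reference cells were wild-type C57BL/6J. Of A382 there were arrays at passages 8 and 9, whose mean stands for the tumour. Tumour explants were started with forskolin and the neuregulin NRG1β and then passaged without them, whereas the Schwann cells stayed in both throughout. The titles give passages 5 to 13, above the limit in the growth notes for some tumours, and none for 231 Trig. The labels name the tumours apart but not the animals they came from. A p-value therefore weighs a mean difference against the spread between these samples, and not against that between animals.

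ErbB receptors are tyrosine kinases of the cell membrane that signal as pairs. EGFR binds epidermal growth factor and its relatives, ERBB3 and ERBB4 bind neuregulins, and ERBB2 has no known ligand of its own and acts as the partner of the others. In Schwann cells neuregulin-1 signals mainly through ERBB2 paired with ERBB3, whose own kinase is weak, and this pair governs their survival, growth and myelination.

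The measurement was of DNA, so a value says nothing of transcript or protein. It is a ratio of tumour to Schwann cell signal, in which copy number and effects of a probe or dye are not told apart. A value of 0 on the log2 scale is the median of a tumour's autosomal probes. Each gene was set against 3 levels: the Schwann cell reference, the median of its 20 neighbouring probes (10 on each side, excluding its own) and the median of its chromosome in the same tumour. A gene is said to have risen or fallen where limma, fitted across all genes with Benjamini-Hochberg adjustment, gave an adjusted p under 0.05 and the mean difference was at least 0.2.

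The probes on which the results for the chromosome 11 and chromosome 10 genes rest, and the Erbb4 probes with the highest and the lowest mean, had these sequences in the array files (5′ to 3′). The strand is not given in the files. Capitals mark CG dinucleotides, which read the same on both strands and which 35.5% of all autosomal probes hold at least once. Coordinates are in mm9 as in the files, and exon or intron position was not analysed here.
Egfr probe 1, chr11:16707588-16707647: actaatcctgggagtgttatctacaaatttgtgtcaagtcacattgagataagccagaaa
Egfr probe 2, chr11:16759004-16759063: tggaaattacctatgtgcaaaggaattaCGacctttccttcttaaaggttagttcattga
Erbb2 probe 1, chr11:98278148-98278204: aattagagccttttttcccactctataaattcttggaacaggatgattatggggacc
Erbb2 probe 2, chr11:98294273-98294323: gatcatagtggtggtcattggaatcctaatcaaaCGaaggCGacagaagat
Erbb3 probe 1, chr10:128023202-128023248: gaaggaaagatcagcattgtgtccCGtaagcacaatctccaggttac
Erbb3 probe 2, chr10:128025798-128025857: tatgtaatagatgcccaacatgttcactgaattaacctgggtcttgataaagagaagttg
Erbb4 probe 2, chr1:68118069-68118128: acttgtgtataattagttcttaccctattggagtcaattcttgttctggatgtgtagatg
Erbb4 probe 7, chr1:68692784-68692843: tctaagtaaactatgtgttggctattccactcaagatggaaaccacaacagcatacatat

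Erbb3 probe 1 was the shortest of the 13 probes, at 47 bases, and had the highest GC content, at 46.8%, against a median of 36.7% over all autosomal probes. The 2 Erbb3 probes lay within 3 kb of each other, so they sample 1 short stretch of DNA. The 7 Erbb4 probes were spread from position 68109667 to position 68692843 of chromosome 1. On all 12 arrays both channels of all 13 probes were well above background, and no member value was missing.

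The arrays fell on 3 slides. Slide 1 (A18, 231 Trig, B86 and A202) was read on another scanner than slides 2 and 3, and it had more spots left out as flagged, 0.72% to 1.99%, against 0.06% to 0.11% for the others. The spread of probes around their neighbours was between 0.19 in A394 and 0.26 in B86. The chromosome 11 median, shared by Egfr and Erbb2, lay above the reference in every tumour, at 0.41 to 1.06.

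The first comparison, of tumour cells with Schwann cells, asked whether the receptor genes differ in copy number. Egfr rose most, Erbb2 less and Erbb3 least, each above the reference in 11 of 11 tumours, whereas Erbb4 was above it in 8 tumours and below it in 3. Thus 3 of 4 receptor genes passed, all upwards, while 33.5% of all genes tested passed, 3605 upwards and 3095 downwards. Egfr and Erbb2 lie on chromosome 11, where 1495 of the 1559 genes tested rose, so their passing is near the share of that chromosome.

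Egfr, the epidermal growth factor receptor, ranged in the mixed tumours from 0.44 in 231 Trig through a median of 0.69 to 1.04 in A382. In the C57BL/6J tumours it was 0.62 in B86, 0.58 in B91, 0.64 in B96 and 0.95 in B76. The highest values, A382, B76 and A202 (0.87), belonged to the tumours with the 3 highest chromosome 11 medians, and the strain backgrounds overlapped. The mean was 0.68 ± 0.21 (SD, n = 11), a ratio of 1.61, with a limma adjusted p of 8.01e-08. Both probes were above 0 in every tumour, with means of 0.78 ± 0.24 for probe 1 and 0.59 ± 0.18 for probe 2.

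Erbb2, which encodes the receptor without a ligand, ranged in the mixed tumours from 0.25 in A394 through a median of 0.46 to 0.97 in A202. Among the C57BL/6J tumours it was 0.53 in B86, 0.16 in B91, 0.28 in B96 and 0.57 in B76. A202, A382 and A18 were the highest tumours, at 0.70 or more, and no value fell below the reference. The mean was 0.50 ± 0.23 (SD, n = 11), a ratio of 1.41, with a limma adjusted p of 8.48e-06. Its probes averaged 0.46 ± 0.20 for probe 1 and 0.53 ± 0.28 for probe 2.

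Erbb3, which encodes the neuregulin receptor with a weak kinase, ranged in the mixed tumours from 0.09 in A18 through a median of 0.16 to 0.58 in A382. The C57BL/6J values were 0.36 in B86, 0.11 in B91, 0.11 in B96 and 0.15 in B76. A382 and B86 stood above the other 9 tumours, which all lay below 0.28. The mean was 0.21 ± 0.15 (SD, n = 11), a ratio of 1.15, with a limma adjusted p of 0.00174. This mean lay just above the size minimum of 0.2, and it was under that minimum without A382 (0.17), without B86 (0.19) or without A202 (0.199). The same held for the C57BL/6J tumours alone (0.18, limma adjusted p 0.0623), for slides 2 and 3 alone (0.19) and for the fit with slide as a block (0.197).

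Erbb4, the other neuregulin receptor, ranged in the mixed tumours from -0.35 in 231 Trig through a median of 0.13 to 0.25 in A382. Among the C57BL/6J tumours it was 0.32 in B86, 0.47 in B91, 0.72 in B96 and -0.25 in B76. A18 (-0.32), 231 Trig and B76 lay below the reference, and B96 stood above all others. The mean of 0.13 ± 0.33 (SD, n = 11) did not pass (limma adjusted p 0.203). It was 0.07 without B96 and 0.24 without slide 1, and passed in neither. Two-sided exact sign-flip permutation tests over the 11 tumours gave 0.000977, the smallest value possible, for Egfr, Erbb2 and Erbb3, and 0.212 for Erbb4. By slide (1, 2 and 3, 4 arrays each), the means were 0.60, 0.77 and 0.77 for Egfr, and 0.66, 0.42 and 0.46 for Erbb2. They were 0.23, 0.22 and 0.26 for Erbb3, and -0.05, 0.23 and 0.24 for Erbb4.

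**Figure D1:**
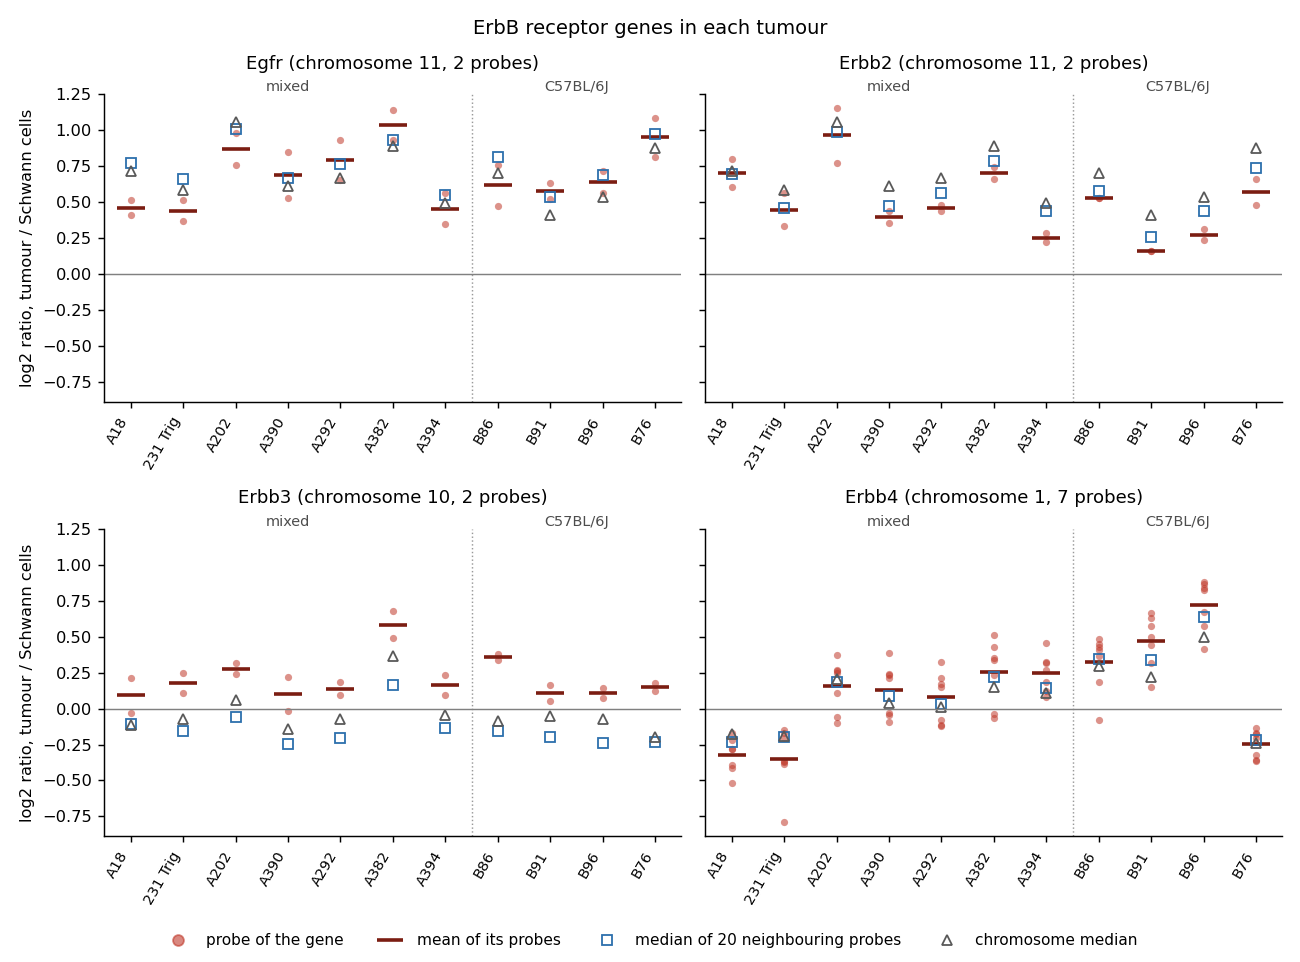
Log2 ratio of tumour over Schwann cell DNA (vertical axis) for each receptor gene in each tumour, mixed tumours left and C57BL/6J tumours right of the dotted line. Dots are single probes, bars the mean of the gene's probes, squares the median of the 20 neighbouring probes and triangles the chromosome median. Egfr lies near the squares and triangles, Erbb2 below the triangles, Erbb3 above both in all 11 tumours, and Erbb4 moves with both.

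No receptor probe approached the size of the largest gains on these arrays. The highest single value was 1.15, of Erbb2 probe 2 in A202, and the lowest was -0.79, of Erbb4 probe 6 in 231 Trig. For scale, the transcription factor gene Myc reached 4.47 in B76 and was above 1 in 3 tumours.

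The second comparison set each gene against its neighbouring probes, and so asked whether a difference was that of the gene or of the region around it. Erbb3 alone of the 4 rose against its neighbours, by 0.35 ± 0.08 (SD, n = 11), with a limma adjusted p of 5.26e-08. Over all genes tested, 22.8% passed this comparison in either direction and 9.95% upwards. Erbb2 was lower than its neighbours by a small amount, and for Egfr and Erbb4 no difference passed.

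The Erbb3 difference ranged in the mixed tumours from 0.20 in A18 through a median of 0.34 to 0.42 in A382. In the C57BL/6J tumours it was 0.52 in B86, 0.31 in B91, 0.35 in B96 and 0.38 in B76. It was positive in every tumour, and it was as large on slide 1 (0.35) as on slides 2 (0.35) and 3 (0.37). Both probes gave it, at 0.33 ± 0.09 for probe 1 and 0.37 ± 0.12 for probe 2, each in 11 of 11 tumours. The neighbouring probes themselves averaged -0.14 ± 0.12 (SD, n = 11), and none of the 20 had a mean above that of Erbb3. A smaller mean difference than that of Erbb3 was found for 97.7% of genes. Over the alternatives run for this comparison it stayed between 0.32 and 0.44, with limma adjusted p-values of 1.38e-08 to 0.000953.

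The nearest measured genes of the Erbb3 neighbourhood list on its 2 sides both fell. Pa2g4, whose product is known to bind ERBB3, fell with a mean of -0.33 ± 0.14 (SD, n = 11, limma adjusted p 1.40e-05) and was below the reference in 11 of 11 tumours. Rps26, a ribosomal protein gene, fell with a mean of -0.37 ± 0.19 (SD, n = 11, limma adjusted p 3.87e-05) and was above the reference in A382 alone, at 0.09. Both also fell against their own neighbouring probes, with means of -0.23 ± 0.06 for Pa2g4 and -0.31 ± 0.10 for Rps26 (SD, n = 11 each). The probe nearest to Erbb3 on the Pa2g4 side, named in the files only as a cDNA, was at -0.14 ± 0.13 (SD, n = 11), and the 2 probes of Ikzf4 beyond Rps26 were at 0.02 and 0.05. Of 11 measured genes of the Erbb3 neighbourhood list, 0 rose, 4 fell and 7 did not pass, with a median of -0.15. The nearest probes lay 17.1 kb and 36.6 kb from the Erbb3 probes, so the extent of the difference within that gap was not measured. Every array set tumour against wild-type Schwann cell DNA in the same dyes, so a difference of the tumours cannot be told apart from one of the reference or of the dyes at these 2 probes.

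Erbb2 was lower than its neighbours by a mean of -0.09 ± 0.06 (SD, n = 11, limma adjusted p 0.00290), under the size minimum. In the mixed tumours this difference ranged from -0.18 in A394 through a median of -0.08 to 0.009 in A18. The C57BL/6J values were -0.05 in B86, -0.10 in B91, -0.16 in B96 and -0.17 in B76. It was negative in 10 of 11 tumours. Its means on slides 1, 2 and 3 were -0.02, -0.09 and -0.15. With 40 neighbouring probes in place of 20 the mean was -0.14. It was -0.06 with normexp background correction (limma adjusted p 0.0765) and -0.07 in the mixed tumours alone (limma adjusted p 0.0677).

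Of 17 measured genes of its neighbourhood list, 16 rose and 0 fell, with a median of 0.71, against a median of -0.01 over all genes tested. Of all 1559 genes tested on chromosome 11, 1495 rose, so this count is near that of the chromosome. The nearest measured list genes to Erbb2 were Pgap3 on one side and Grb7 on the other. Pgap3, an enzyme gene of lipid anchor remodelling, was at 0.50 ± 0.18 (SD, n = 11). Grb7, an adaptor that binds activated ERBB2, was at 0.71 ± 0.27 (SD, n = 11). Both were above the reference in 11 of 11 tumours. A probe of Mien1, a gene outside the list, lay between Erbb2 and Grb7, at 0.29 ± 0.27 (SD, n = 11). This Mien1 probe was above the reference in 10 of 11 tumours. Of the 20 neighbouring probes, 13 had a higher mean than Erbb2, and their means ran from 0.03 to 1.15.

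Egfr differed from its neighbours by a mean of -0.08 ± 0.13 (SD, n = 11, limma adjusted p 0.0723). In the mixed tumours the difference ranged from -0.32 in A18 through a median of -0.10 to 0.10 in A382. The C57BL/6J values were -0.19 in B86, 0.04 in B91, -0.05 in B96 and -0.02 in B76. Its 4 most negative values were those of slide 1, whose mean was -0.22, against 0.05 on slide 2 and -0.02 on slide 3. The mean was 0.0024 without slide 1 (limma adjusted p 0.935), and -0.18 with normexp background correction (limma adjusted p 0.00138). With slide as a block it was -0.07 (limma adjusted p 0.00531). Each of these stayed under the size minimum. Whether slide or scanner accounts for this was not tested.

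The 20 neighbouring probes of Egfr spanned 5051 kb, since probes were sparse on one side. Of 14 genes of the Egfr list, 12 rose, which were the 12 on chromosome 11, where most genes rose, and 2 on another chromosome did not pass. Sec61g, a subunit gene of the protein translocation channel, lay lower than the other neighbours at 0.26 ± 0.17 (SD, n = 11). Plek, a gene of the blood cell protein pleckstrin, was at 0.55 ± 0.21 (SD, n = 11).

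Erbb4 differed from its neighbours by 0.01 ± 0.09 (SD, n = 11, limma adjusted p 0.712), with values from -0.15 in 231 Trig through a median of 0.03 to 0.13 in B91. Its closest measured list genes on the 2 sides were Cps1, a urea cycle enzyme gene, at 0.19 ± 0.28 and Ikzf2, a lymphocyte transcription factor gene, at 0.09 ± 0.24 (SD, n = 11 each). Neither passed. Of 10 measured genes of the Erbb4 neighbourhood list, 0 rose, 1 fell and 9 did not pass, beside 3605 of 20009 genes that rose and 3095 that fell in all. The nearest other probes lay 808 kb and 843 kb away, so this comparison was coarse for Erbb4.

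**Figure D2:**
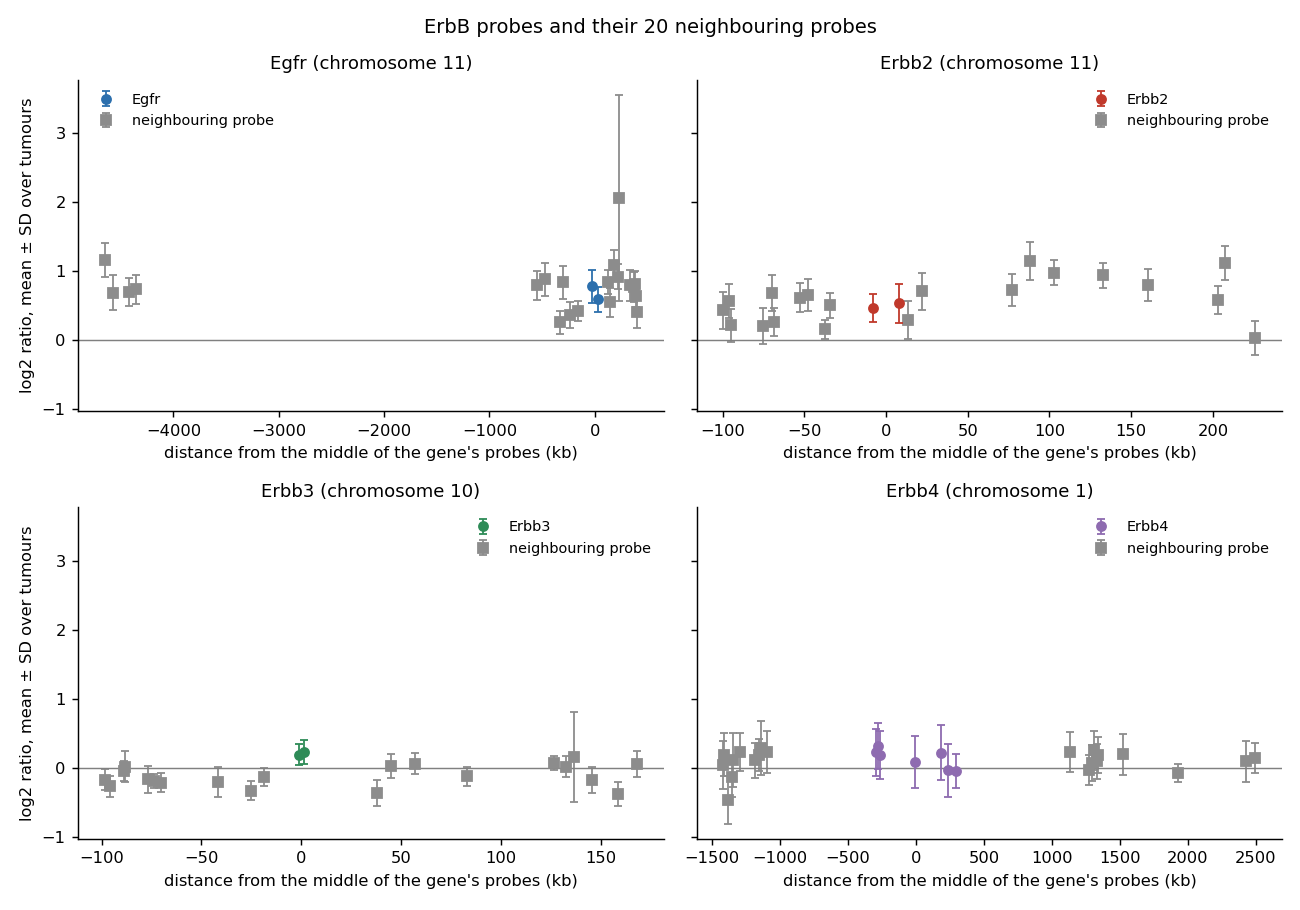
Mean log2 ratio ± SD over the tumours (vertical axis) of the receptor probes (coloured dots) and their 20 neighbouring probes (grey squares), by distance in kb from the middle of the gene's probes. The Erbb3 probes lie above all their neighbours, and the Egfr and Erbb2 probes lie within the range of theirs. A Cnrip1 probe near Egfr, at 2.06 ± 1.49, stands apart from the rest of that region. It was above 0 in 8 of 11 tumours, and at -0.02 in A202, -0.18 in A390 and -0.45 in A382.

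The probes of a gene did not all agree. Egfr probe 2 was lower than its neighbours in 10 of 11 tumours (-0.17 ± 0.11, limma adjusted p 0.000332), whereas probe 1 was at 0.02 ± 0.17. Erbb2 probe 1 was lower in 11 of 11 tumours (-0.12 ± 0.06, limma adjusted p 0.000410), whereas probe 2 was at -0.05 ± 0.13. All 4 of these local values were under the size minimum.

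Among the Erbb4 probes, the local mean was 0.19 ± 0.10 for probe 2, above its neighbours in 11 of 11 tumours, and -0.17 ± 0.06 for probe 7, below them in 11 of 11. Neither reached the size minimum. The 3 probes at the end of lower coordinates (probes 1 to 3) had means against the reference of 0.18 to 0.31, and the 2 at the other end (probes 6 and 7) had means of -0.04 and -0.05. Counted by probe, 7 of the 13 passed against the reference, all upwards, while 37.4% of all probes passed. They were both Egfr probes, both Erbb2 probes, probe 2 of Erbb3 and probes 1 and 2 of Erbb4. The Egfr and Erbb2 probes lie on chromosome 11, where 1495 of the 1559 genes tested rose. Against the neighbours 2 of the 13 passed, the 2 of Erbb3, while 28.9% of all probes passed.

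**Figure D3:**
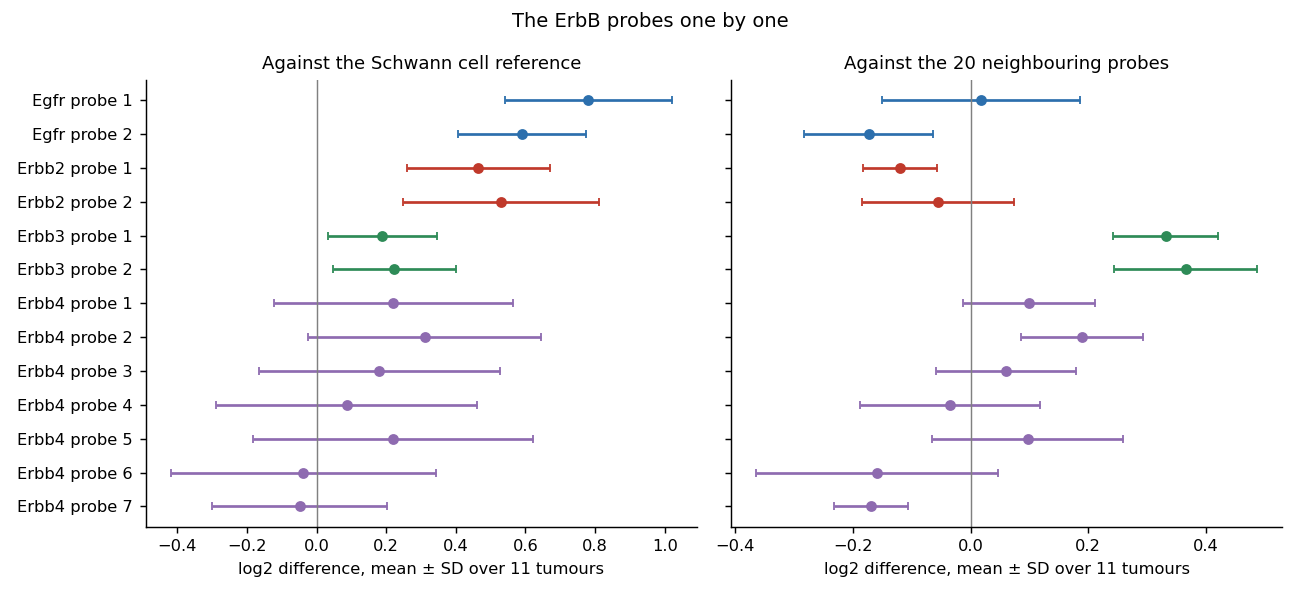
Mean log2 difference ± SD over 11 tumours (horizontal axis) of each of the 13 receptor probes, against the Schwann cell reference (left) and against the 20 neighbouring probes (right). Both Erbb3 probes lie right of 0 in the right panel, at 0.33 and 0.37, and the Erbb4 probes lie on both sides of 0.

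The third comparison set each gene against the median of its own chromosome. Erbb3 rose by 0.24 ± 0.08 (SD, n = 11, limma adjusted p 2.28e-06) and was above the chromosome 10 median in 11 of 11 tumours. Of all genes tested, 23.0% passed this comparison. Erbb2 lay below the chromosome 11 median in 11 of 11 tumours by a mean of -0.19 ± 0.08 (SD, n = 11, limma adjusted p 2.24e-05), just under the size minimum. Egfr had a mean difference of -0.00084 ± 0.15 (SD, n = 11, limma adjusted p 0.987) and Erbb4 one of 0.05 ± 0.13 (SD, n = 11, limma adjusted p 0.270).

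The Erbb2 difference from chromosome 11 was smallest in A18, at -0.01, and largest in B76, at -0.31. Its means were -0.10 on slide 1, -0.20 on slide 2 and -0.26 on slide 3. It passed the size minimum without A18 (-0.21), without slide 1 (-0.24) and in the C57BL/6J tumours alone (-0.25, limma adjusted p 0.00266). The neighbours of Erbb2 also lay below the chromosome median, by a mean of -0.10. The Egfr difference was negative in all 4 tumours of slide 1, with a mean of -0.17, against means of 0.14 on slide 2 and 0.06 on slide 3. Without slide 1 the Egfr difference was 0.09 (limma adjusted p 0.00761), under the size minimum.

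Erbb4 varied the most among the tumours, with an SD of 0.33, and 96.6% of all genes had a smaller SD. Its SD was 0.13 after the chromosome 1 median was taken off and 0.09 after its neighbours were taken off. The chromosome 1 median itself ran from -0.24 in B76 to 0.50 in B96, the tumour in which Erbb4 was highest. In A382, where Erbb3 was highest, stood also the highest chromosome 10 median, 0.36, and the difference of Erbb3 from it, 0.22, was within the range of the other tumours. In B86, the second highest tumour for Erbb3, the chromosome 10 median was -0.09 and the difference from it was 0.45, the largest of the 11. The Erbb3 signal of B86 was also the lowest of the 11 in both channels, as given below. The Erbb4 difference from the chromosome averaged -0.08 on slide 1, 0.13 on slide 2 and 0.11 on slide 3.

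**Figure D4:**
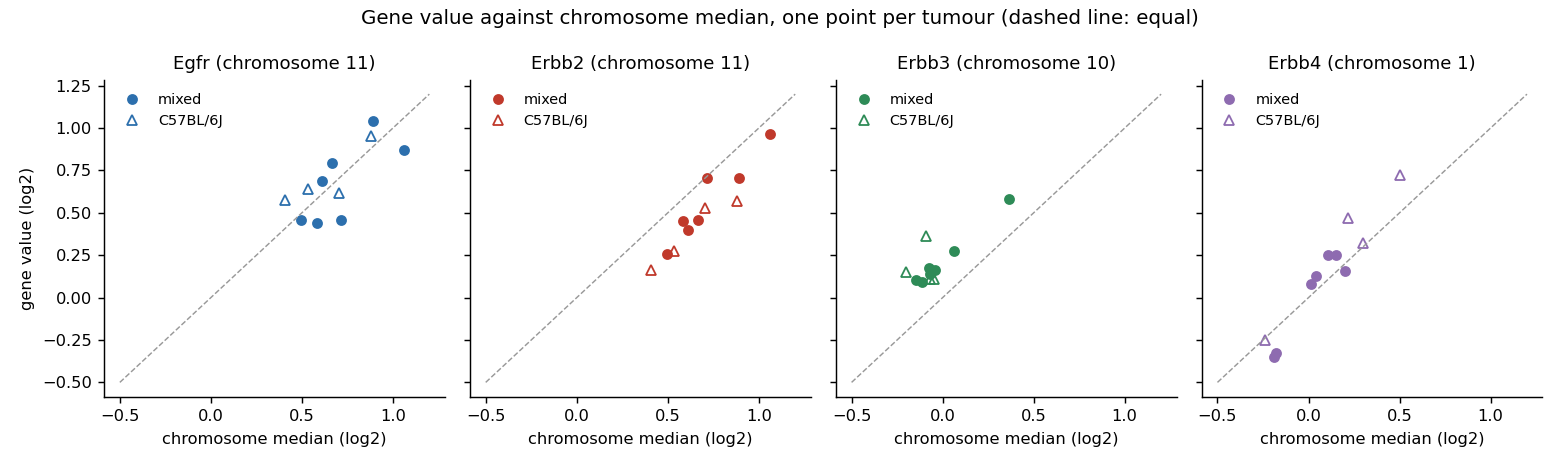
Gene value (vertical axis, log2) against the median of its chromosome (horizontal axis, log2), 1 point per tumour, filled circles for mixed and open triangles for C57BL/6J tumours. The dashed line marks equal values: all Erbb3 points lie above it, all Erbb2 points lie below it, and the Erbb4 points run along it.

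Since a ratio can be high through more tumour DNA or less reference DNA, the channels were also read apart. Each was taken as log2 of the processed signal, with the trend on probe GC content removed and the array's autosomal median at 0, as a description without a test. Chromosome 11 had a median of 0.15 ± 0.17 in the tumour channel and -0.52 ± 0.04 in the Schwann cell channel (SD, n = 11). The other 18 autosomes averaged -0.16 to 0.24 in the tumour channel and -0.09 to 0.17 in the Schwann cell channel. In the Schwann cell channel chromosome 11 was the lowest of the 19 autosomes on 12 of 12 arrays, and in the tumour channel it was the highest on 2 of 12.

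For Egfr the tumour channel was at -0.63 ± 0.18, between -0.91 in A394 and -0.30 in A202, and the Schwann cell channel at -1.26 ± 0.11, between -1.41 in B76 and -1.08 in A18. For Erbb2 the tumour channel was at 0.12 ± 0.29 and the Schwann cell channel at -0.34 ± 0.31 (SD, n = 11 each). Without the GC adjustment these means were 0.48 in the tumour channel and 0.03 in the Schwann cell channel. A18 was the lowest in both Erbb2 channels, at -0.55 in the tumour channel and -1.21 in the Schwann cell channel. A probe's brightness also depends on its sequence, so the level of a gene in 1 channel is read across tumours and not against other genes.

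Slide 1 stood apart in the Schwann cell channel of Egfr, at -1.13 ± 0.03 (SD, n = 4), against -1.34 ± 0.04 (SD, n = 7) on the other slides. In that of Erbb2 it was at -0.64 ± 0.38 (SD, n = 4), against -0.18 ± 0.03 (SD, n = 7). That slide 1 mean was drawn down by A18, at -1.21, while 231 Trig, B86 and A202 were at -0.45, -0.42 and -0.47. The part of slide and scanner in the Egfr and Erbb2 values was not tested.

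For Erbb3 the tumour channel was at 0.34 ± 0.25 and the Schwann cell channel at 0.16 ± 0.24 (SD, n = 11 each), with B86 lowest in both, at -0.19 and -0.49. Chromosome 10 was at -0.06 ± 0.16 in the tumour channel and 0.03 ± 0.01 in the Schwann cell channel. For Erbb4 the tumour channel was at -0.31 ± 0.33 and the Schwann cell channel at -0.39 ± 0.06 (SD, n = 11 each). The spread of Erbb4 among tumours was thus in the tumour channel, where chromosome 1 also varied, at 0.15 ± 0.23, while its Schwann cell channel was at 0.10 ± 0.01.

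**Figure D5:**
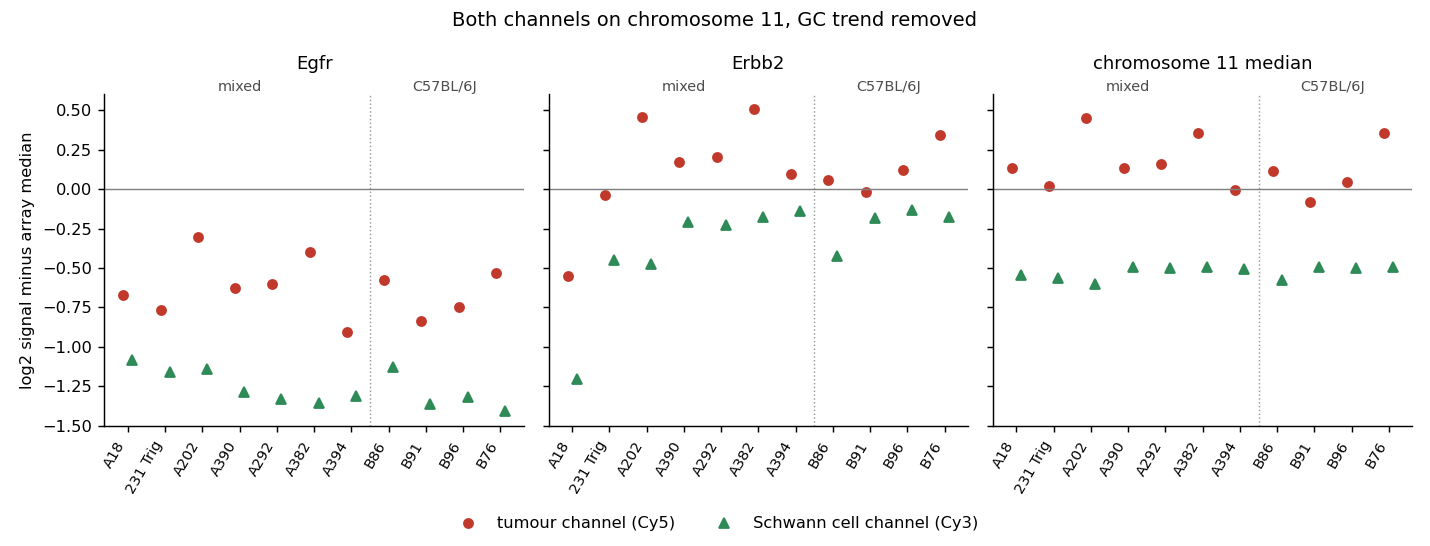
Signal of each channel (vertical axis, log2, array autosomal median at 0, GC trend removed) for Egfr, Erbb2 and the chromosome 11 median in each tumour, circles for the tumour channel and triangles for the Schwann cell channel, mixed tumours left of the dotted line. The chromosome 11 triangles lie between -0.60 and -0.49 in every tumour, while the circles vary from -0.08 to 0.45.

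The strain comparison asked whether the receptor genes differed between tumours of mixed and of C57BL/6J background. Erbb4 averaged 0.03 ± 0.26 in mixed tumours (SD, n = 7) and 0.32 ± 0.41 in C57BL/6J tumours (SD, n = 4), a difference of -0.29 with a 95% interval of -0.64 to 0.07. Erbb2 averaged 0.56 ± 0.24 in mixed tumours (SD, n = 7) and 0.38 ± 0.20 in C57BL/6J tumours (SD, n = 4), a difference of 0.18 with an interval of -0.09 to 0.45. Egfr and Erbb3 differed by -0.02 (-0.28 to 0.24) and 0.04 (-0.18 to 0.25).

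For none of the 4 did the strain difference pass, with limma adjusted p-values of 0.955 for Egfr, 0.581 for Erbb2, 0.883 for Erbb3 and 0.514 for Erbb4. Two-sided exact permutation tests over the 330 splits of the tumours gave 0.885, 0.236, 0.806 and 0.179 in the same order. The Erbb4 difference was -0.48 without B76, -0.15 without B96 and -0.14 without slide 1. The Erbb2 difference was 0.10 without B91, 0.11 without A202 and 0.12 without slide 1. Those of Egfr and Erbb3 took either sign as single tumours were left out, from -0.08 to 0.07 and from -0.02 to 0.10. The ranges of the strain backgrounds overlapped for each gene. Of all genes tested, 0.015% passed, and 2053 had an unadjusted limma p under 0.05. The intervals of Erbb2 and Erbb4 reach to 0.45 and -0.64.

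The 2 passages of A382 gave close values. At passage 9 Egfr was 1.05, Erbb2 0.73, Erbb3 0.62 and Erbb4 0.25, against 1.03, 0.68, 0.55 and 0.25 at passage 8. The largest difference, 0.07 for Erbb3, was smaller than the SD among tumours. The 2 arrays were on different slides, so passage and slide cannot be told apart here.

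Other genes of the receptors' pathway were counted by lists of their roles, beside 3605 of 20009 genes that rose and 3095 that fell in all, together 33.5%. Of 10 measured ErbB ligand genes, 1 rose, 2 fell and 7 did not pass, with a median of 0.01. Tgfa, which encodes the EGFR ligand transforming growth factor alpha, rose with a mean of 0.41 ± 0.29 (SD, n = 11), ranging from -0.004 in 231 Trig to 1.08 in B91. Nrg1, the gene of the family to which the GGFβ3 transgene belongs, fell with a mean of -0.26 ± 0.15 (SD, n = 11) at its own locus on chromosome 8, as read by 2 probes. Epgn, which encodes the EGFR ligand epigen, fell with a mean of -0.21 ± 0.17 (SD, n = 11), as read by 1 probe. Against their neighbouring probes neither Nrg1 (-0.10 ± 0.09) nor Epgn (-0.09 ± 0.16) passed, whereas Tgfa rose by 0.31 ± 0.16 (SD, n = 11 each). In that comparison 4 of the 10 ligand genes rose and 0 fell, beside 1991 of 20009 genes that rose and 2577 that fell. The 4 were Tgfa, Nrg4, Areg and Btc. Areg and Btc lie close together on chromosome 5, at positions 91577167 and 91805074, so they are not separate regions.

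Of 32 measured adaptors and effectors, 9 rose, 7 fell and 16 did not pass, with a median of -0.02. All 7 members on chromosome 11 rose, as did 1495 of the 1559 genes tested on that chromosome. The 4 highest lay there: Grb10, an adaptor that binds activated receptors, at 0.74 ± 0.22, Stat3 at 0.72 ± 0.22, Grb7 at 0.71 ± 0.27 and Stat5a at 0.66 ± 0.21 (SD, n = 11 each). Stat3 and Stat5a encode transcription factors activated downstream of receptor kinases. None of these 4 passed against its neighbouring probes.

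Of 14 measured negative regulators and sheddases, 1 rose, 5 fell and 8 did not pass, with a median of -0.13. Lrig1, which encodes a membrane protein that promotes degradation of ErbB receptors, rose with a mean of 0.39 ± 0.27 and also rose against its neighbours, by 0.22 ± 0.10 (SD, n = 11 each). Spry2, an inhibitor of receptor kinase signalling, fell with a mean of -0.38 ± 0.17. Cblb, a ubiquitin ligase gene, fell with a mean of -0.31 ± 0.15, and Errfi1, which encodes an inhibitor of the ErbB kinases, with a mean of -0.31 ± 0.11 (SD, n = 11 each). These 3 also fell against their neighbouring probes, with means of -0.28 ± 0.10 for Spry2, -0.28 ± 0.04 for Cblb and -0.20 ± 0.07 for Errfi1.

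Over the 11 tumours Pearson's r was 0.50 between Egfr and Erbb2, 0.55 between Egfr and Erbb3, 0.48 between Erbb2 and Erbb3, 0.08 between Egfr and Erbb4, 0.15 between Erbb3 and Erbb4 and -0.42 between Erbb2 and Erbb4. These are descriptions over points that share slides and the kind of reference, as are the following.

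Each receptor gene was most like other genes of its own chromosome, among genes with at least 2 probes. Erbb4 was closest to Prrc2c and Chrng (r 0.994 and 0.993), which lay 96.5 and 21.0 Mb from it on chromosome 1. Egfr was closest to Eml6 and Mapt (0.968 and 0.964), and Mapt lay 87.4 Mb away on chromosome 11. Erbb2 was closest to a cDNA without a gene symbol and to Gsdma3 (both 0.985), and Erbb3 to Prmt2 and Actr6 on chromosome 10 (0.972 and 0.951). On other chromosomes the most alike were Sgta and Washc4 for Egfr (0.911 and 0.899), Aig1 and Rcl1 for Erbb4 (0.862 and 0.817), Prdx1 and Cdk12 for Erbb3 (0.727 and 0.677), and a second cDNA and 4933402N03Rik for Erbb2 (0.843 and 0.828).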

How the data were processed

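The deposited ratios are log10 of Cy5 tumour over Cy3 reference signal, and each channel is given as intensity, per the file headers. The headers name Agilent Feature Extraction 9.5.1.1 (9.5 in the submitters' processing notes) with background subtraction, detrending and linear dye normalization, and build mm9. The series table gave identical values. Here the authors' log10 ratios were turned into log2, control spots were dropped, flagged spots were set to missing, and spots of a probe were averaged. The median of the 40726 autosomal probes was set to 0 on each array, and gene values are means of a gene's probes.

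Tests used limma 3.58.1 in R 4.3.3 over all 20009 genes or all probes, against 0 or between strains, with Benjamini-Hochberg adjustment, and were tested on simulated data. The mean over 11 tumours leaves out the reference's own spread, and, with no dye swap, dye and tumour effects cannot be told apart. The number of arrays limits the precision. Names are those of the files, updated by accession through RefSeq, where 28945 of the 29337 probes with an accession matched. The receptor genes, lists, tests and rule for named genes were chosen with earlier results of these data known. That rule took the 4 receptors, up to 4 passing genes of each pathway list by size, the nearest list gene on each side of a receptor, and the 4 genes most like each receptor.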

Additional observations from a re-analysis of the deposited data

Results flagged for a closer look

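In 24 groups of tumour values (each receptor gene under each of the 3 comparisons, in each strain background), 3 held a tumour whose gap to the nearest other tumour, relative to the group's range, passed Dixon's 95% critical value. Chance alone gives about 1 such group in 20. Egfr in B76, at 0.951, was the highest of the 4 C57BL/6J tumours, with the next at 0.639. Erbb3 in A382, at 0.584, was the highest of the 7 mixed tumours, with the next at 0.277. Erbb3 in B86, at 0.362, was the highest of the 4 C57BL/6J tumours, with the next at 0.150. B86 was also the lowest of the 11 tumours in both Erbb3 channels, at -0.19 (tumour) and -0.49 (Schwann cells). Whether this bears on its ratio was not tested. The mean of Egfr over the other tumours was 0.658 without B76. That of Erbb3 was 0.168 without A382 and 0.190 without B86, both under the size minimum.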

How the results depend on the processing

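Of 16 results on the receptor genes (4 genes, 3 levels and the strain comparison), 13 kept their direction where they had passed and their side of the threshold under all of the 23 to 32 alternatives run for each. The exceptions were Erbb3 against the reference, Erbb2 against its neighbours and Erbb2 against its chromosome. Erbb3 against the reference was 0.183 in the C57BL/6J tumours, 0.194 without slide 1, 0.197 with slide as a block, and 0.168 to 0.217 when 1 tumour was left out. It was -0.052 with a running median of 5 probes, which by construction mixes its 2 probes with their lower neighbours. Erbb2 against its neighbours passed without a size minimum (-0.087). Erbb2 against its chromosome passed with a size minimum of 0.1 or 0 (-0.19 in both), in the C57BL/6J tumours (-0.25) and without slide 1 (-0.24), with -0.21 to -0.18 when 1 tumour was left out. The cause was not tested. In the channels, Erbb2 was 0.483 (tumour) and 0.035 (Schwann cells) without the GC adjustment, against 0.123 and -0.344 with it. Chromosome 11 in the Schwann cell channel was -0.484 without that adjustment, and Egfr there was -1.06 with the signal as scanned. Of all genes, 6700 passed against the reference and 4279 with the running median. Between the strain backgrounds 3 passed, with 16 under normexp, 11 without background subtraction, 5 without dim probes, 0 without slide 1 and 5 to 10 without 231 Trig, A390, A382 or A394. Depth does not limit these values, since all 13 probes were well above background, but 2 probes stand behind each of 3 genes.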
